A study of Drosophila melanogaster with 12 samples.

Results

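RNA from the heads of BG02514 flies was compared with that of Canton S B flies, using the 8 arrays of these lines among the 12 arrays of the study. The arrays were chosen by their labels alone, and all 13966 probe sets that were not controls were considered. Each line was represented by 2 female and 2 male arrays of adult Drosophila melanogaster. The control, Canton S B, is wild type. BG02514 comes from a set of insertion lines made with the gene-trap transposon P{GT1}, which can interrupt a gene and carries reporter sequences of its own. Where the element sits was not stated in the labels, and the title of the study names the region of Tre1 and Gr5a on the X chromosome. No other allele, agent or treatment is given for either line, and all lines were kept together at 70% humidity and 25 °C, lit for 12 h a day. Each sample pooled the heads of 100 flies aged 5 to 7 days, so an array gives a mean over animals and over all tissues of the head. BG02257, another line of that collection, was measured beside them on 4 arrays and is used here for the estimate of the spread and for values set side by side.

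A probe set is a group of short oligonucleotides that together report 1 transcript or part of it, and its Signal is a relative intensity. A difference is given on the log2 scale as BG02514 minus Canton S B, so that 1 is a doubling and −1 a halving. Signals of different probe sets are not levels that can be set against each other. Since the head holds eye, brain, antenna, fat body and muscle, fewer cells of a type and less RNA per cell cannot be told apart. The labels number the replicates but do not say whether they came from separate cultures, and the p-values then measure the spread between these samples.

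Tre1 is a G protein-coupled receptor that guides migrating germ cells, and Gr5a is a receptor of sugar-sensing taste neurons. In the fly eye, light activates rhodopsin, a G protein and phospholipase C, and the cation channels that then open are held with their partners in one complex by the scaffold InaD inside the rhabdomere, the stack of microvilli of a photoreceptor. The red and brown pigments around the photoreceptors come from pteridine and ommochrome synthesis, pathways known from classical eye colour mutants. Secreted serine proteases form another large family of fly genes, with members in digestion, in the blood clotting and immune cascades and in the nervous system.

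Median Signal on the 8 arrays ranged from 190.6 to 204.8. The replicates of BG02514 females had, over all probe sets (which share arrays and are not independent), a Spearman correlation of 0.955, against 0.925 for the median with arrays of other groups. In BG02514 males the values were 0.941 and 0.929. Canton S B females correlated with each other at 0.924 and with other groups at 0.922, and Canton S B males at 0.918 and 0.922, so the control replicates resembled each other about as much as they resembled the rest. Ratios of 3′ to 5′ Signals of actin, a sign of RNA integrity, ran from 1.352 to 3.295 in Canton S B and from 1.561 to 3.224 in BG02514, and those of GAPDH from 3.701 to 6.156 and from 3.894 to 4.873. Those of 18S rRNA differed more between the lines, with 0.708 to 4.99 in Canton S B and 1.589 to 2.065 in BG02514, and the part of RNA integrity in the line differences was not tested. The array numbers in the titles run on from line to line. If they follow the order of processing, that order and line cannot be told apart.

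Few probe sets passed the test between BG02514 and Canton S B heads. With 2 arrays per group, this does not show how many transcripts differ. Averaged over the sexes, 15 of 8380 tested probe sets (0.179%) passed the limma test at an adjusted p under 0.05, 8 of them higher (0.0955%) and 7 lower (0.0835%) in BG02514. They hold 13 probe sets of 11 named genes, of 6778 genes tested (0.162%), and 2 probe sets with no single gene name. Higher were the serine proteases CG32523 and teq, the photoreceptor protein gene chp, the TOR regulator Iml1, the transporter MFS10 and the aminopeptidase Psa. Lower were the eye pigment gene se, the photoreceptor scaffold inaD, the transcription genes udd and Ctr9, the lipid droplet gene sturkopf and one further probe set of teq.

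All 15 had their 2 BG02514 arrays on one side of the 2 Canton S B arrays in females and on the same side in males, as did 816 of the 8380 probe sets (9.74%), 357 of them higher (4.26%) and 459 lower (5.48%). At an unadjusted p under 0.05 there were 672 probe sets where 419 were expected by chance. The median difference over 6778 genes, each taken by its brightest probe set, was −0.02, and 46.3% of genes lay above 0. How many probe sets passed depended on single arrays. Without Canton S B female 2 or male 2 the counts were 7 and 6, without BG02514 female 1, female 2, male 1 or male 2 they were 6, 4, 4 and 5, and without Canton S B female 1 the count was 20. CG32523, se and the teq probe sets 141527_at and 153070_at passed in all 12 fits that left out 1 array. When each probe set was fitted alone on log2 Signal, which shares no estimate of the spread, 153070_at passed and the calls of CG32523 (adjusted p = 0.117), se (0.117) and 141527_at (0.128) were lost. On linear Signal CG32523 also passed, and se (0.193) and 141527_at (0.106) did not.

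**Figure D1:**
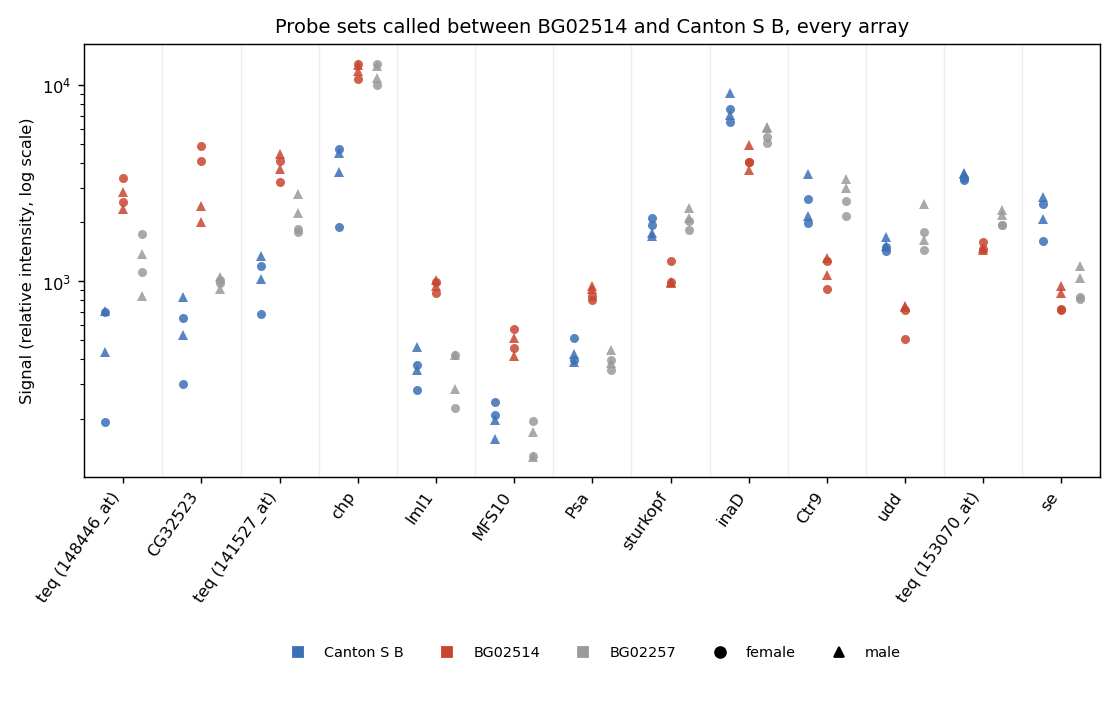
Signal (log scale) of the 13 probe sets with a single gene name that passed the test between BG02514 (red) and Canton S B (blue), with BG02257 (grey) beside them; each symbol is 1 array, circles for females and triangles for males. In every column the 4 red symbols and the 4 blue symbols do not overlap; the grey symbols lie with the red ones for chp and se and with the blue ones for Iml1, MFS10, Psa, sturkopf, Ctr9 and udd.

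CG32523, on the X chromosome, is predicted to encode a secreted serine endopeptidase of the trypsin family. Its Signal (probe set 145468_at) in Canton S B was 300.4 and 653 in females and 837 and 535 in males. In BG02514 it was 4128 and 4901 in females and 2010 and 2414 in males. All 4 BG02514 arrays lay above all 4 Canton S B arrays, and within BG02514 the female arrays lay above the male arrays. The log2 difference was 2.53 ± 0.23 (SE, limma adjusted p = 0.00113), with means of 3363 ± 1376 in BG02514 and 581.5 ± 225 in Canton S B (SD, n = 4 each). It was 3.34 in females and 1.72 in males. The limma test of the difference between the sexes gave an adjusted p of 1.

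teq (Tequila), on 3L, encodes a secreted serine protease of many domains, related to the mammalian neurotrypsin, and has been linked to long-term memory in flies. Its probe sets moved in opposite directions. At 141527_at, which stands for teq in the lists since its mean over all 12 arrays was slightly above that of 153070_at, Canton S B females had Signals of 684 and 1205.5, and its males 1025 and 1356. BG02514 females had 3214 and 4136 and its males 3763 and 4456, all above every Canton S B array. The log2 difference was 1.90 ± 0.19 (SE, limma adjusted p = 0.00178).

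At 148446_at the Canton S B Signals were 193 and 703 in females and 703 and 436 in males, and the BG02514 Signals were 2537 and 3377 in females and 2335 and 2851.5 in males. This probe set rose by 2.61 ± 0.36 (SE, adjusted p = 0.0175). The probe set 153070_at went the other way. Its Signal was 3357 and 3309 in Canton S B females, 3526 and 3577 in Canton S B males, 1460 and 1587 in BG02514 females and 1455 and 1481 in BG02514 males. It was the difference with the smallest p of the comparison, −1.20 ± 0.10 (SE, adjusted p = 0.00105), and replicates of a line lay close together, at 3442 ± 129 in Canton S B and 1496 ± 61.9 in BG02514 (SD, n = 4 each).

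The remaining probe set of teq, 148445_at, was too dim to be tested, with Signals of 8.6 to 17.1 on the Canton S B arrays and 43.7 to 105 on the BG02514 arrays. Of the tested probe sets of teq, 2 thus rose and 1 fell, and the part of the gene that each one covers was not analysed here. The call of 148446_at was lost without Canton S B male 2 (adjusted p = 0.0875) and without BG02514 female 1, female 2, male 1 or male 2 (0.0667, 0.147, 0.107 and 0.11). Of the 22 tested genes of secreted serine proteases and serpins, 10 lay above 0 and 12 below, with a median of −0.06, and CG32523 and teq were the members that passed the test. Without Canton S B female 2, 12 lay above 0 and the median was 0.10. In this count teq stands as higher through 141527_at, while 153070_at fell. The next largest difference was that of grass, a protease of the Toll immune cascade, at −0.60 (adjusted p = 0.473).

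Genes of the eye changed in both directions. chp, on 3R, encodes chaoptin, a leucine-rich repeat protein on the surface of rhabdomere microvilli that holds them together. Its Signal was 4731 and 1898 in Canton S B females, 3598 and 4504.5 in Canton S B males, 12844 and 10771 in BG02514 females and 12717 and 11862 in BG02514 males. The BG02514 arrays were all above the Canton S B arrays, of which female 2 was the lowest. The log2 difference was 1.79 ± 0.23 (SE, limma adjusted p = 0.0148). The call was lost without BG02514 female 1, female 2, male 1 or male 2 (adjusted p of 0.0667, 0.0728, 0.107 and 0.0891).

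chp was the member that passed among 16 tested genes of photoreceptor structure. The others in this list lay between −0.33 (ed) and 0.41 (Act88F, an actin gene not particular to the eye). Of the 16, 8 lay above 0 and 8 below. rtp, a gene of the retinophilin scaffold of rhabdomeres, gave −0.25 ± 0.09 (adjusted p = 0.471), with arrays that did not overlap in either sex.

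inaD, on 2R, encodes the PDZ scaffold that binds the phospholipase, the protein kinase C and the TRP channel of phototransduction. Its Signal was 7590 and 6501 in Canton S B females and 7099 and 9170 in its males, against 4071 and 4088 in BG02514 females and 3714 and 4961 in its males. All BG02514 arrays lay below all Canton S B arrays. inaD fell by 0.85 ± 0.13 on the log2 scale (SE, limma adjusted p = 0.0278). In a fit of the 2 lines alone it did not pass (limma adjusted p = 0.0583). Its call was lost without Canton S B female 1, female 2 or male 2 (adjusted p of 0.0721, 0.0571 and 0.0935) and without BG02514 female 1, female 2 or male 1 (0.113, 0.178 and 0.107).

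Of 23 tested genes of phototransduction, inaD was the one that passed, 14 lay below 0 and 9 above, and the median was −0.07. Arrays did not overlap in either sex for 2 members that were higher and 4 that were lower, where 9.86% of all genes had arrays apart in one direction or the other. Among these were retinin, a protein of the corneal lens surface, at 0.62 ± 0.18 (adjusted p = 0.315). stops, which is needed to keep up phospholipase C levels in photoreceptors, gave −0.55 ± 0.16 (adjusted p = 0.328), and the cation channel gene trpl gave −0.53 ± 0.17 (adjusted p = 0.371). The lowest value of the list was that of pinta, a retinoid-binding protein gene, at −0.87 ± 0.47 (adjusted p = 0.71), with overlapping male arrays.

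se (sepia), on 3L, encodes an omega-class glutathione S-transferase that makes a precursor of the red drosopterin pigments. Its Signal was 2483 and 1613 in Canton S B females, 2085 and 2691 in Canton S B males, 719.7 and 711 in BG02514 females and 947 and 875 in BG02514 males. Every BG02514 array lay below every Canton S B array. se fell by 1.43 ± 0.16 on the log2 scale (SE, limma adjusted p = 0.00356), and the values were −1.48 in females and −1.38 in males.

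The other omega-class genes lie beside se in gene order and did not pass the test. GstO2 gave −0.28 ± 0.16 (adjusted p = 0.74), GstO3 −0.23 ± 0.13 (0.727) and GstO1 0.03 ± 0.20 (0.986). Of 15 tested eye pigment genes, se was the one that passed, with 10 below 0, 5 above and a median of −0.05. mal, which encodes the sulfurase of the molybdenum cofactor that xanthine dehydrogenase needs for pteridine synthesis, gave −1.89 ± 0.37 (adjusted p = 0.0994). Its Signal was 316 and 374 in Canton S B males against 25.1 and 56.1 in BG02514 males, while the female arrays overlapped, at 260 and 393 against 167 and 267. The BG02514 male Signals of mal were under the mean of 128.3 needed for testing, so the size of its difference is uncertain. The ABC transporter gene st gave −0.64 (adjusted p = 0.396) and pr, of pteridine synthesis, −0.43 (adjusted p = 0.545).

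Psa, on 3L, encodes a puromycin-sensitive aminopeptidase. Its Signal was 517 and 399 in Canton S B females and 390.3 and 425 in its males, and 804 and 846.5 in BG02514 females and 949 and 912 in its males. The groups did not overlap, and Psa rose by 1.03 ± 0.14 (SE, limma adjusted p = 0.0175). MFS10, on the X chromosome, encodes a transporter of the major facilitator superfamily. Its Signal was 158 to 243 on the 4 Canton S B arrays and 416 to 572 on the 4 BG02514 arrays, again without overlap, and it rose by 1.29 ± 0.21 (SE, adjusted p = 0.0339).

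These were the 2 members that passed among 17 tested aminopeptidase and transporter genes, of which 9 lay above 0 and 8 below, with a median of 0.00. MFS16 gave −0.51 (adjusted p = 0.269) and MFS18 0.30 (adjusted p = 0.613). Psa lost its call without Canton S B female 2 or male 2 (adjusted p of 0.0571 and 0.057) and without any one of the BG02514 arrays (0.0667 to 0.147). MFS10 lost it without any one of the Canton S B arrays (0.0596 to 0.123) or of the BG02514 arrays (0.107 to 0.241).

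Iml1, on 3L, encodes a subunit of the GATOR1 complex, which holds back TORC1 when amino acids are scarce. Its Signal was 374 and 279.9 in Canton S B females and 352 and 462 in its males, against 869.8 and 989 in BG02514 females and 946 and 1023 in its males. It rose by 1.40 ± 0.22 (SE, limma adjusted p = 0.0336), and no arrays of the lines overlapped. Iml1 was the member that passed among 21 tested genes of the TOR and GATOR complexes, 10 of which lay above 0 and 11 below. Lst (0.56, adjusted p = 0.367) and Akt (0.48, adjusted p = 0.501) had the next largest differences. The call of Iml1 was lost without Canton S B female 2, male 1 or male 2 (adjusted p of 0.097, 0.0922 and 0.0875) and without any one of the BG02514 arrays (0.113 to 0.228).

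Ctr9, on 3L, encodes a subunit of the Paf1 complex, which travels with RNA polymerase II during elongation. Its Signal was 2640 and 1983 in Canton S B females and 2163 and 3519 in its males, and 1278 and 919.6 in BG02514 females and 1319 and 1083 in its males. Ctr9 fell by 1.14 ± 0.18 on the log2 scale (SE, limma adjusted p = 0.0364), with no overlap between the lines. In a fit of the 2 lines alone it did not pass (limma adjusted p = 0.0711). Of the 12 tested genes of the Paf1 complex and of elongation, 9 lay below 0 and 3 above, with a median of −0.14, and Ctr9 was the one that passed. Arrays also did not overlap for CG3909 (−0.43, adjusted p = 0.692) and Spt5 (−0.26, adjusted p = 0.601). Among the named genes that passed, Ctr9 lost its call in the most settings, and it did so in 11 of the 12 fits that left out 1 array, each except that without Canton S B male 1, with adjusted p from 0.0524 (without BG02257 male 1a) to 0.237 (without BG02514 female 2).

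udd (under-developed), on 2R, encodes a factor of RNA polymerase I transcription of ribosomal RNA genes, known from ovarian germline stem cells. Its Signal was 1427 and 1502 in Canton S B females and 1689 and 1508 in its males, against 715 and 510.5 in BG02514 females and 751 and 741 in its males. All BG02514 arrays lay below all Canton S B arrays, and udd fell by 1.19 ± 0.17 on the log2 scale (SE, limma adjusted p = 0.0207). No other of the 11 tested genes of ribosomal RNA transcription and the nucleolus passed, and Nnp-1 had the next lowest value (−0.41, adjusted p = 0.747). The call of udd was lost without Canton S B female 2, male 1 or male 2 (adjusted p of 0.0698, 0.0596 and 0.0788) and without BG02514 female 2, male 1 or male 2 (0.153, 0.107 and 0.11).

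sturkopf, on 3L, encodes a protein of the surface of lipid droplets. Its Signal was 1939 and 2117.5 in Canton S B females and 1709 and 1769 in its males, and 1267 and 993 in BG02514 females and 995.5 and 982 in its males. It fell by 0.83 ± 0.12 on the log2 scale (SE, limma adjusted p = 0.0259), and the lines did not overlap. In a fit of the 2 lines alone it did not pass (limma adjusted p = 0.0502). Of 19 tested genes of lipid droplets and fat metabolism it was the one that passed, with 12 above 0 and 7 below. The desaturase gene Desat1 (0.55, adjusted p = 0.284) and the phosphatidate phosphatase gene Lpin (−0.53, adjusted p = 0.516) followed by size. The call of sturkopf was lost without Canton S B female 2, male 1 or male 2 (adjusted p of 0.0805, 0.0569 and 0.0921) and without any one of the BG02514 arrays (0.0514 to 0.178).

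The 2 probe sets with no single name that passed are given by their identifiers. At 147127_s_at, which is paired with several gene symbols, Signal was 76.2 to 210.5 in Canton S B and 483 to 833 in BG02514, and the difference was 2.19 ± 0.34 (SE, limma adjusted p = 0.0336). At 149849_at, paired with none, Signal was 1589 and 3001 in Canton S B females, 445 and 896 in its males, 637 and 508 in BG02514 females and 233 and 280.2 in its males. In each sex the lines lay apart, but BG02514 females were not below all Canton S B males. The difference was −1.62 ± 0.25 (SE, adjusted p = 0.0336). Both lost their call without any one of the BG02514 arrays (adjusted p of 0.137 to 0.177 for the first and 0.103 to 0.228 for the second) and without Canton S B female 2 or male 2 (0.0805 to 0.123), and the first also without Canton S B male 1 (0.0576).

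A further 17 genes, 8 higher and 9 lower, had the smallest p among those that did not pass and whose arrays lay apart in both sexes. CG6700 was nearest to the threshold, at 1.15 ± 0.19 (SE, limma adjusted p = 0.0501). The odorant-binding protein gene Obp99d and CG5172 had values of 2.04 ± 0.40 (adjusted p = 0.0996) and 2.04 ± 0.41 (adjusted p = 0.104). Obp99d was dim, with Signals of 16.2 to 113 in Canton S B and 123 to 264 in BG02514. It passed the filter on brightness only through the other lines, so the size of its difference is uncertain, and a pseudocount of 16 gave 1.64. CG5172 had a mean Signal of 123 in Canton S B, also under the limit of 128.3. CG7607 (1.55), CG1090 (0.85) and ergic53 (0.92), whose product carries glycoproteins from the endoplasmic reticulum, did not pass either, at adjusted p of 0.0702, 0.0833 and 0.133. The values of the Bomanin gene BomT2 and of CREG, which encodes a secreted glycoprotein, were 0.54 and 0.81 (adjusted p = 0.131 for both).

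On the lower side, Tmtc1, of a family of protein O-mannosyltransferases, gave −1.67 ± 0.33 and Acat2, an acetyl-CoA acetyltransferase, −1.05 ± 0.20, both at an adjusted p of 0.0994. Their mean Signals in BG02514 were 101.6 and 124.5, under the limit of 128.3, so the sizes of these differences are uncertain. CG5653 (−1.10) and l(2)efl (−0.83), a small heat shock protein gene, had an adjusted p of 0.0911. CG8004 (−0.80) and Pdzd8 (−0.76), a lipid transfer protein of membrane contact sites, had 0.066, and CSN7, a subunit of the COP9 signalosome, had −0.86 and 0.0702. CG17572 gave −0.67 (0.0994) and the lysosomal protease gene cathD −0.49 (0.0996). cathD was bright and tight within each line, with Signals of 10732 ± 1021 in Canton S B and 7610 ± 463 in BG02514 (SD, n = 4 each).

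Within females alone 3 probe sets passed (0.0358%), CG32523 and teq at 141527_at and 153070_at, and within males 1 (0.0119%), teq at 153070_at. All 15 probe sets had the same sign in both sexes, and 10 of them differed more in females. For chp the female and male differences were 1.97 ± 0.33 and 1.61 ± 0.33, for Psa 0.86 ± 0.20 and 1.19 ± 0.20, and for udd −1.28 ± 0.24 and −1.10 ± 0.24 (SE). No probe set passed the limma test of a difference between the female and the male effect, with 0 of 8380 called (0%), 204 at an unadjusted p under 0.05 where 419 were expected, and a smallest adjusted p of 1. Separate two-way models per probe set called 0 as well, and 238 of them were under that unadjusted level on log2 Signal. The female and male differences were −0.59 and −3.19 for mal, 3.04 and 1.04 for Obp99d and −1.25 and −0.46 for CSN7. mal was dim in BG02514 males and Obp99d in Canton S B, so the sizes of these differences are uncertain. The calls within a sex also rested on single arrays: without Canton S B female 1 or female 2 there were 6 in females and 5 in males, and without BG02514 female 2 there were 0 in either. Without BG02514 male 1 or male 2 there was 1 in females and 0 in males, without BG02514 female 1 or BG02257 female 1 there were 2 and 0, and without BG02257 female 2 there were 1 and 0.

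**Figure D2:**
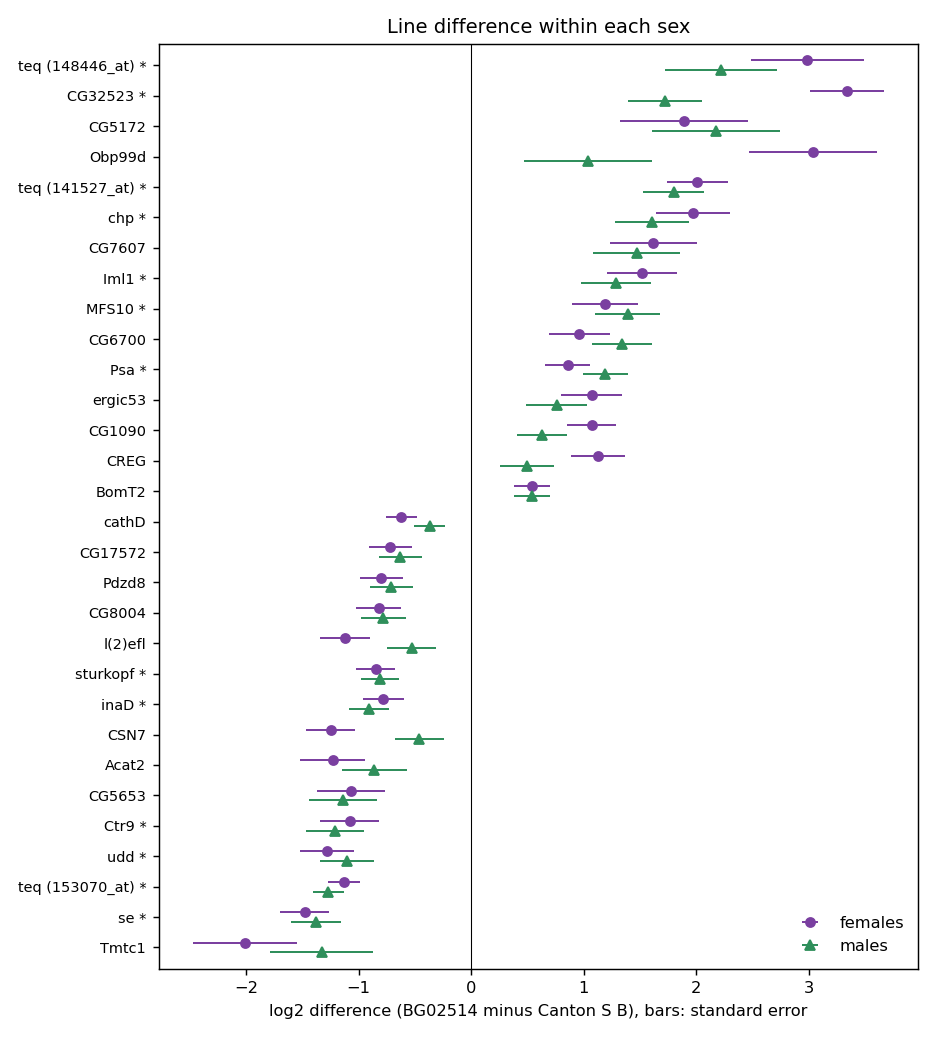
Log2 difference (BG02514 minus Canton S B) in females (circles) and in males (triangles) for the 30 named probe sets; bars are the standard errors of the limma fit and an asterisk marks those that passed the test over both sexes. Every probe set lies on the same side of 0 in both sexes, and CG32523, Obp99d and CSN7 show the widest gaps between the sexes relative to their bars.

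The remaining genes were described in lists by head tissue and function. In all 33 lists were counted, 10 had a member that passed and 23 had none. Of all genes tested, 0.162% passed. The lists were chosen with earlier results of these data known, and se stands in both the eye pigment and the omega-class list. The count of 10 is therefore not a result about the lists. A list without one is described by its counts beside those over all genes, of which 4.15% had arrays apart and higher in both sexes and 5.71% apart and lower.

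Chemosensory genes included no member that passed. Of 24 tested odorant-binding protein genes, which encode soluble carriers of the fluid around olfactory neurons, 16 lay below 0 and 8 above, and the median was −0.08. Arrays lay apart for 2 that were higher and 6 that were lower. Without Canton S B female 2, 12 of the 24 lay above 0 and the median was 0.01. Obp19c (−0.90) and Obp56h (−0.89) had the lowest values, both at an adjusted p of 0.19, and Obp99b gave 1.08 (adjusted p = 0.541). Of 12 other genes of olfactory and chemosensory proteins, 8 lay below 0 and 4 of these had arrays apart in both sexes. Os-C, expressed in the antenna, gave −0.50 ± 0.12 (adjusted p = 0.194), a10 −0.39 ± 0.15 (adjusted p = 0.506) and Npc2h, of a sterol-binding family, 0.93 ± 0.21 (adjusted p = 0.171).

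Receptor genes were mostly below the limit of brightness: 8 of the 53 odorant receptors and 2 of the 28 gustatory receptors on the array were tested. Or47b, the receptor of a fly odour that promotes courtship, had Signals of 177 and 109.5 in Canton S B females, 328 and 281 in its males, 100.8 and 39.0 in BG02514 females and 24.0 and 138 in its males. The difference was −1.78 ± 0.57 (SE, limma adjusted p = 0.382), with arrays apart in both sexes. Most BG02514 Signals of Or47b were below the limit of brightness, so the size of its difference is uncertain. Orco, the coreceptor of odorant receptors, gave −0.23 ± 0.18 (adjusted p = 0.827).

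Immune effector genes included no member that passed, and 7 of 10 lay above 0, with a median of 0.30. Arrays lay apart in both sexes for 3 that were higher and 1 that was lower. The smallest limma adjusted p of the list was 0.122. Drs, which encodes the antifungal peptide drosomycin, had Signals of 1650.5 and 1813 in Canton S B females, 2890.4 and 4040.0 in its males, 3861 and 3239 in BG02514 females and 12470 and 5732 in its males. Its difference was 1.17 ± 0.25 (adjusted p = 0.14), and the male arrays of BG02514 lay far from each other. Def, the gene of the peptide defensin, gave 1.13 ± 0.28 (adjusted p = 0.199) and DptB, of the diptericin family, 0.91 ± 0.43 (adjusted p = 0.648), whose arrays overlapped in females. Listericin (−0.70) and Drsl5 (−0.49) lay on the other side of 0.

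The Bomanins, short peptides released into the blood under control of the Toll pathway, were grouped after their values were seen. All 8 that were tested lay above 0 and none passed, and 4 had arrays apart in both sexes: BomBc2 (0.79), BomS2 (0.79), BomT2 (0.54) and BomS6 (0.28). BomT2, BomBc2, BomS2, BomS4, BomS5 and BomS6 lie close together on 2R. Of 22 genes of immune recognition and signalling, 14 lay below 0, and the values ran from −0.77 to 0.94. Tep4, a thioester protein, gave −0.50 ± 0.12 (adjusted p = 0.176), spz, the ligand of Toll, −0.50 ± 0.16 (adjusted p = 0.369), and PGRP-SB1, a peptidoglycan recognition protein, 0.94 ± 0.32 (adjusted p = 0.42).

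Genes of gut digestive enzymes, a tissue outside the head, lay higher in BG02514 in 24 of 25 cases, with a median of 0.34, 0.56 in females and 0.25 in males. None passed the test, and 3 had arrays apart in both sexes. Without Canton S B female 2, 22 of the 25 lay above 0 and the median was 0.30. The amylase gene Amy-d gave 1.86 ± 0.52 (adjusted p = 0.29), and the proteases Jon65Aiv and alphaTry gave 1.84 ± 0.62 (adjusted p = 0.42) and 1.74 ± 0.98 (adjusted p = 0.73). Summed over the list, Signal was 17838, 10401, 15039 and 12193 on Canton S B female 1, female 2, male 1 and male 2, and 19933, 22993, 16748 and 17482 on the BG02514 arrays in that order. The ranges of the lines overlap, and within each sex every BG02514 array lay above both Canton S B arrays. The part of such RNA in the differences of CG32523 and teq was not tested.

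Genes of cuticle proteins lay above 0 in 18 of 28 cases, with a median of 0.27, and none passed. Arrays were apart for 6 that were higher and 2 that were lower. Acp1 gave 1.45 ± 0.47 (adjusted p = 0.405), Cpr100A 1.32 ± 0.53 (adjusted p = 0.516), Cpr97Eb 1.14 ± 0.35 (adjusted p = 0.349) and TwdlT −0.95 ± 0.35 (adjusted p = 0.486). Of 33 genes of glutathione and sugar conjugating enzymes outside the omega class, 22 lay below 0 and 5 of these had arrays apart. They included GstD11 (−0.89, adjusted p = 0.218) and GstD9 (−0.52, adjusted p = 0.194). Of 52 cytochrome P450 genes 37 lay above 0, with a median of 0.09, and Cyp28d1 gave 0.75 ± 0.16 (adjusted p = 0.151).

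Markers of other head cells and of other tissues held no member that passed. Of 34 neuronal and synaptic genes 19 lay above 0 and 15 below, with a median of 0.02 and values from −0.66 to 0.72. Hk, a subunit of potassium channels, had the smallest limma adjusted p of the list (0.194), at −0.66 ± 0.16. Of 18 glial genes 10 lay above 0, with a median of 0.06 and values from −0.23 to 1.02. Nrx-IV, of the septate junctions, had the smallest limma adjusted p of the list (0.171), at 0.76 ± 0.17. Genes of neuropeptides, the clock, muscle and the sex-responsive head fat body had medians of 0.01, −0.12, −0.07 and −0.09. Without Canton S B female 2 the neuronal median was −0.05, with 16 of 34 above 0, and 10 rather than 15 of 27 neuropeptide genes lay above 0 (median −0.13). Yp1, a yolk protein gene of that fat body list, had Signals of 77354 and 82684 in BG02514 females and 172 and 387 in its males, as the labels of sex have it. Of 22 hemocyte genes 16 lay above 0 (median 0.11), and 21 without Canton S B female 2 (median 0.28).

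The mitochondrial respiratory chain, with 33 of 48 genes above 0, and the cytosolic ribosomal proteins, with 21 of 26 below, had no member that passed and medians of 0.05 and −0.06. Genes of testis and accessory gland, and of ovary and egg, were mostly too dim to be tested, with 7 of 36 and 6 of 33 tested and medians of −0.17 and 0.01. Of 25 genes of G protein-coupled receptors and G proteins, the family of Tre1, 16 lay above 0, none passed, and the values ran from −0.35 to 0.47.

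**Figure D3:**
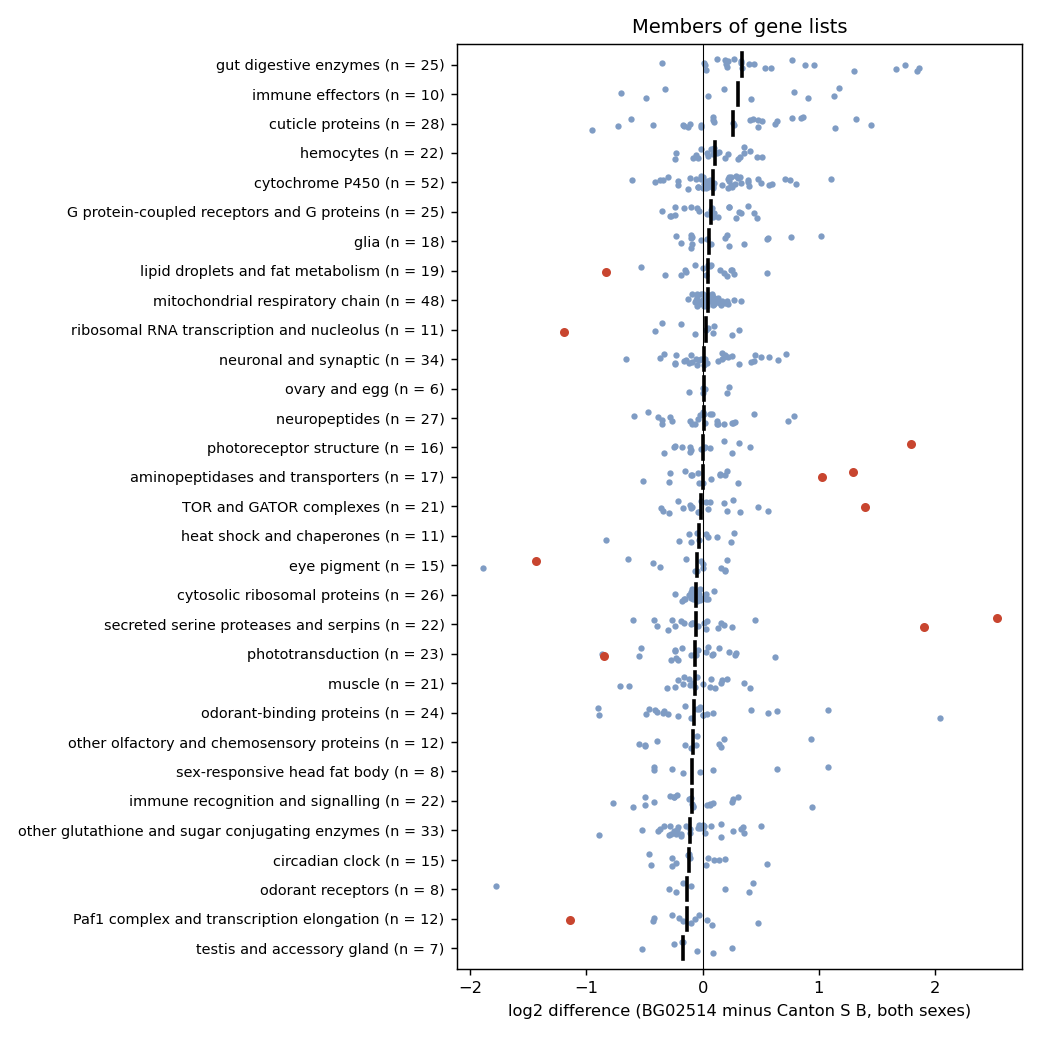
Log2 difference (BG02514 minus Canton S B, over both sexes) of the tested members of 31 gene lists, ordered by their median (black bar); each point is 1 gene and red points passed the test. Medians run from −0.17 to 0.34, with the lists of gut digestive enzymes, immune effectors and cuticle proteins at the top, and the red points lie at or near one end of their lists.

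BG02257 shared the Canton S B arrays as its control, so its values are set beside those of BG02514 only as a description. Of the 15 probe sets, BG02257 had its mean nearer to BG02514 in 5 and nearer to Canton S B in 10. The 5 were the teq probe sets, chp and se. BG02257 minus Canton S B was 1.73 for chp, with Signals of 10054 and 12906 in its females and 12577 and 10931 in its males. For se it was −1.18, with Signals of 813 to 1194. For teq the differences were 1.44 at 148446_at, 1.04 at 141527_at and −0.72 at 153070_at, each with the sign seen in BG02514 and a smaller size.

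The other genes had BG02257 values nearer to the control. CG32523 gave 0.86 and inaD −0.41, both between the lines. Iml1 (−0.14), MFS10 (−0.38), Psa (−0.13), udd (0.24), Ctr9 (0.12) and sturkopf (0.14) lay on the far side of Canton S B from BG02514. Their Signals in BG02257 were 228 to 423 for Iml1 and 354 to 445 for Psa, against 870 to 1023 and 804 to 949 in BG02514.

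The genes that passed were spread over the chromosome arms of the RefSeq gene order of the assembly Release 6 plus ISO1 MT. On 3L there were 6 of 1282 (0.468%), on the X 2 of 1171 (0.171%), on 2R 2 of 1369 (0.146%), on 3R 1 of 1677 (0.0596%), on 2L 0 of 1215 and on chromosome 4 0 of 47. The share of genes with arrays apart in both sexes was 11.2% on 3L, 9.82% on the X, 10% on 2R, 9.12% on 3R, 9.22% on 2L and 17% (8 of 47 genes) on chromosome 4.

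Several of these genes were neighbours on 3L. Ctr9 and sturkopf lie next to each other with overlapping annotated spans, and each fell. Nt5a, between Ctr9 and Acat2, gave −0.43 (adjusted p = 0.486), and Herc4, beyond sturkopf, gave −0.15 (adjusted p = 0.878). Of 8 tested neighbours of Ctr9 within 10 genes on either side, 3 had arrays apart and lower in both sexes, as did 5.71% of all genes. They were Acat2, Nt5a and sturkopf. sturkopf had already passed the test and Acat2 had been named for its arrays lying apart, so the count is not separate evidence. Around udd the count was 3 of 15 and around se 1 of 16. Psa and Iml1, which rose, have 1 gene between them, cue, with −0.20 (adjusted p = 0.854), and hfp and CG12091 on either side gave −0.20 and 0.24. se, which fell, has 3 genes between it and ergic53, namely GstO2, GstO1 and foi. On the X, CG1722, close to CG32523, gave −1.20 ± 0.26 (adjusted p = 0.151). Its mean Signal in BG02514 was 108.6, below the limit of brightness, so the size of this difference is uncertain.

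Transcripts of the region in the title could be examined only in part. Tre1 had no probe set by its name and is not analysed here. Gr5a had 1 probe set, too dim to be tested, with Signals of 34.9 and 36.2 in Canton S B females, 138 and 43.6 in its males, 53.8 and 64.7 in BG02514 females and 64.3 and 115 in its males. These values overlapped in males and lay slightly apart in females, and at this brightness no difference can be read from them. None of the 10 nearest tested neighbours passed. AdamTS-B, a secreted metalloprotease gene, had Signals of 1060.5 and 471 in Canton S B females, 729.5 and 838 in its males, 378 and 199 in BG02514 females and 484 and 455 in its males. Its arrays were apart in both sexes, and the difference was −1.05 ± 0.28 (SE, limma adjusted p = 0.269). The other 9 lay between −0.32 (CG4119) and 0.56 (PGAP1).

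**Figure D4:**
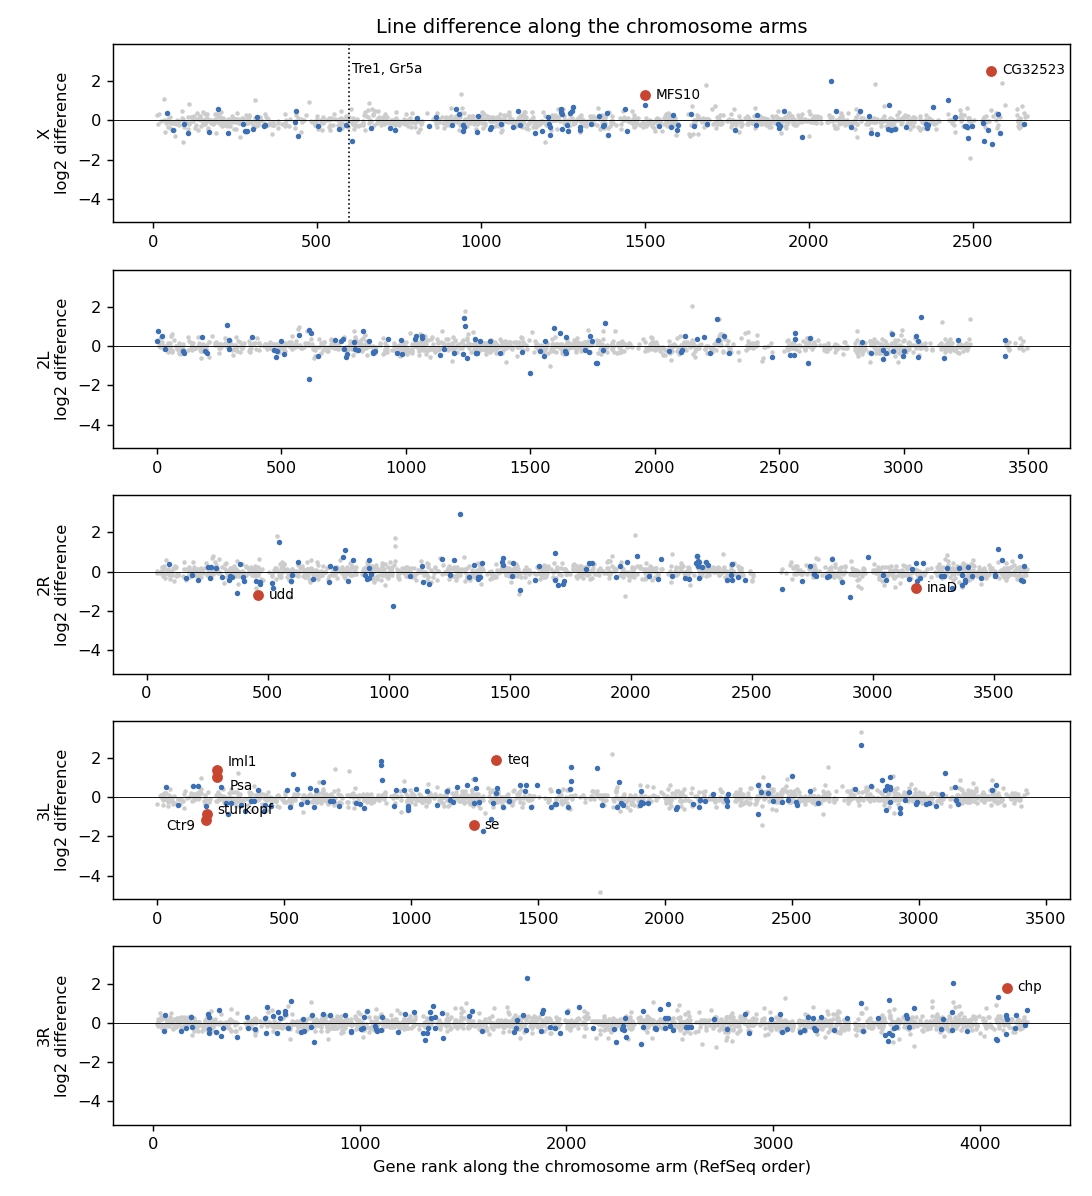
Log2 difference (BG02514 minus Canton S B, over both sexes) of the tested genes by their rank along 5 chromosome arms; red points passed the test, blue points had arrays apart in both sexes without passing and grey points are the rest. The dotted line marks Tre1 and Gr5a on the X, and the red points include the neighbours Ctr9 and sturkopf and the near neighbours Psa and Iml1 on 3L.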

How the data were processed

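Heads of 3 lines and both sexes were measured on 12 Affymetrix arrays, 2 per group. Per the labels' design text, the authors computed intensities with the Signal metric of Microarray Suite 5.0, and the submitters' processing notes name GCOS. Its version, the background settings and the detection calls are not stated there. The deposited intensities had a trimmed mean of 500.1 on each array (2% of each tail left out), so they were already scaled.

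Of 14010 probe sets, 44 controls were left out. The platform annotation gave 12443 of the other 13966 a single gene symbol, 327 several and 1196 none, and 12394 matched RefSeq (Release 6 plus ISO1 MT), which was used for names and gene order only since the files name no build. The brightest probe set stood for a gene. log2 Signal, with each array scaled to the same trimmed mean, was tested at the 8380 probe sets whose mean Signal reached 128.3 (40th percentile), 919 of them with no single name. The labels number both male arrays of BG02257 as replicate 1, and they are called male 1a and 1b. They may come from the same sample, but the model counts them as separate. Their agreement then enters the estimate of the spread behind every p-value.

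All 12 arrays entered 1 model of 6 group means, equivalent to the line, sex and interaction model of the labels, in limma 3.58.1 under R 4.3.3 (eBayes with a variance trend, 6 residual and 5.09 prior degrees of freedom; tests were two-sided). Benjamini-Hochberg adjustment ran over the 8380 probe sets, and a probe set passed at an adjusted p under 0.05. The line difference is the mean of the female and the male difference. Arrays are called apart in a sex where both BG02514 arrays lie on one side of both Canton S B arrays.

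The rule for the named genes took up to 15 probe sets per direction: those that passed, then those with the smallest p whose arrays lay apart in both sexes. It added all probe sets of the genes that passed and 5 measured genes on either side of Tre1 and Gr5a. Of each list described it allowed up to 4 members with the largest differences, but the members printed were not always the largest. The genes and lists were chosen with earlier results of these data known. The model was tested on simulated data of 8380 probe sets for this comparison. Of 100 probe sets changed by 1 on the log2 scale 73% were recovered, and of 100 changed by 2 95%. There were 12 false calls (6.67% of all calls). The simulated noise was independent and normal, with the same spread on all 12 arrays and no outlying array. The share recovered also depends on how many probe sets differ. That number was set here and is not known for the real arrays, where 15 probe sets passed. These figures therefore need not hold for the real arrays. In all 24 other settings were tried. The number of arrays limits the precision.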

Additional observations from a re-analysis of the deposited data

How the results depend on the processing

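Of 24 other settings, counts over both sexes moved by over 1.5 times without a variance trend (5 calls), with each probe set fitted alone (1 on log2 and 3 on linear Signal), in an additive fit of the 2 lines with sex as a block (25, 17 higher and 8 lower) and when single arrays were left out (4 to 20). The cause was not tested. Apart from fits without 1 array, the other settings gave 11 to 19 calls. A fit of the 2 lines alone shifted the split to 14 higher and 3 lower, with 11 of the 15 calls kept. Lost in that fit were inaD, sturkopf, Ctr9 and 149849_at. Quantile normalization gave 9 higher and 9 lower, and no brightness filter 5 and 9. Counts in females were 1 without the trend, 1 (log2) and 2 (linear) with each probe set alone and 0 to 6 with single arrays left out, and in males 0 without the trend, 0 with 2 lines only and 0 to 5. The interaction had 0 calls throughout. Replicates of equal number did not deviate together (r = 0.0508 in females and 0.027 in males). With 2 arrays per group, these values cannot show whether the numbers pair the samples. With the replicate number as a block there were 11 calls (9 higher, 2 lower; 8 of the 15 kept), and 0 in females and 0 in males. teq at 153070_at kept its call in all settings, 4 of the 15 kept it without any 1 array, and 10 of the 17 next genes gained one in some setting. No named probe set changed sign. The medians of the 33 gene lists were compared in only some of these settings, and in 66 comparisons none moved beyond its spread. The alternative without Canton S B female 2 for the gene lists was chosen after seeing the data. It gave 22 members above 0 of gut digestive enzymes, 19 of cuticle proteins, 7 of immune effectors, 21 of hemocytes and 12 of odorant-binding proteins. The sign of the median turned in 6 lists: odorant-binding proteins (0.01), gustatory receptors (0.19), secreted serine proteases and serpins (0.10), neuronal genes (−0.05), neuropeptides (−0.13) and ovary (−0.09). Dim probe sets, such as those of Gr5a and of most odorant receptors, limit what could be tested.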
